A study of Homo sapiens with 17 samples.

Results

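Smooth muscle contractile genes were followed in IMR90 ER:RAS fibroblasts during oncogene-induced senescence and after knockdown of SMARCA4, the ATPase of the SWI/SNF chromatin remodeling complex. The 10 genes form a list of known members of the contractile program of smooth muscle and myofibroblasts: ACTA2, ACTG2, TAGLN, CNN1, MYL9, MYH11, TPM1, TPM2, LMOD1 and SMTN. They were 10 of 62754 genes in the count tables, and all 10 were among the 19473 genes that passed the filter on low counts. IMR90 ER:RAS cells are human lung fibroblasts infected with a retrovirus that carries RASG12V fused to an estrogen receptor domain, so that 4-hydroxytamoxifen (4OHT) switches on the oncogene. Every library came from these cells, which all carried the transgene and were all transfected with an siRNA a day before 4OHT or DMSO, with RNA taken 7 days later. The groups were DMSO with a non-targeting siRNA (DMSO siNT, n = 5), 4OHT with a non-targeting siRNA (4OHT siNT, n = 6) and 4OHT with an siRNA against SMARCA4 (4OHT siSMARCA4, n = 6). No library analysed here combined DMSO with siSMARCA4, and all libraries came from 1 engineered line. The labels do not say whether libraries of a group came from separate cultures, so p-values measure the spread between these libraries. The labels number the siRNAs 2 or 4 and give each library a tag such as 1V or 2VM, whose meaning is not explained. Libraries are named here by siRNA number and tag, as in 2-2VM.

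Smooth muscle cells shorten when myosin slides along actin filaments. Calcium acts through calmodulin and myosin light chain kinase to phosphorylate the regulatory light chain of myosin, and tropomyosins, calponin and smoothelin sit along the thin filaments. Transcription of these genes is driven by serum response factor (SRF), which binds a sequence called the CArG box with coactivators of the myocardin family. Cultured fibroblasts express many of the same genes, and higher levels of them, above all ACTA2, are known as the mark of the myofibroblast, the contractile cell of wounds and scars.

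Because SRF acts through CArG boxes near the start of many of these genes, promoter sequence was read first. The CArG box is a run of 10 bases that begins with CC, ends with GG and holds 6 bases of A or T between them, and it reads the same on both strands. RefSeq promoter entries on GRCh38.p14, each with 250 bases before and 50 bases after a transcript start, were at hand for 7 of the 10 genes (12 entries). ACTG2 held 2 CArG boxes and 1 of the SMTN entries held 1, whereas 1.29% of all 35116 entries held at least 1. A looser form, which allowed 1 C or G among the 6 middle bases, occurred in 8.13% of all entries and added 2 matches at the ACTA2 start that lies inside the longer gene model. TPM1, TPM2, CNN1 and LMOD1 had neither form in these windows. The looser form was searched after the strict one had no match in ACTA2. The letters TGANTCA and CATTCCT, searched on both strands, had 0 matches in the 12 entries and occurred in 7.71% and 4.77% of all entries. The 3 sequences with a match are shown 5′ to 3′ up to the transcript start, with the matches in capitals. The ACTG2 sequence ends earlier, at its last box, where GENCODE 44 places exons of other transcripts. The ACTA2 and SMTN stretches overlap no annotated exon of their gene.
ACTG2, chr2:73892758-73892944, plus strand: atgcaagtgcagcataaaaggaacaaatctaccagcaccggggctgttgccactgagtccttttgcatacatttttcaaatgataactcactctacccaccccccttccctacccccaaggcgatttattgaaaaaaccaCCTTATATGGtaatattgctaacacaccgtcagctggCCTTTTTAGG
ACTA2, chr10:88952774-88953023, minus strand: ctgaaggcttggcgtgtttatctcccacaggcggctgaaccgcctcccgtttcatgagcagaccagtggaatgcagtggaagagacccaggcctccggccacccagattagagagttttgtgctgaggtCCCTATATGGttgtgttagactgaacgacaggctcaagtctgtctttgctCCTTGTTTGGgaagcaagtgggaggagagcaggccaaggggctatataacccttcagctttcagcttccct
SMTN, chr22:31084746-31084995, plus strand: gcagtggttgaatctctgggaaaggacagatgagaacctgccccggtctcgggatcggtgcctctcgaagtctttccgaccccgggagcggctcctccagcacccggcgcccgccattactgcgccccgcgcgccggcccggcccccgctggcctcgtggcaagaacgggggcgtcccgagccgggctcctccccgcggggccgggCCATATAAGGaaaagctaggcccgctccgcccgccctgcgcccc

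Library totals ranged from 39.1 to 68.98 M counts (M for 1e6). SMARCA4 itself was at 198 ± 19.2 CPM (counts per 1e6 counts, scaled by TMM; mean ± SD, n = 5) in DMSO siNT, 268 ± 13.2 (n = 6) in 4OHT siNT and 88.0 ± 22.8 (n = 6) in 4OHT siSMARCA4, and no siSMARCA4 library reached the siNT values. Of all genes tested, edgeR called 27.4% lower and 27.0% higher in 4OHT siNT than in DMSO siNT, and 13.8% lower and 10.4% higher in 4OHT siSMARCA4 than in 4OHT siNT, and the marker counts are read beside these shares. Fibroblast markers were abundant as a sum in all libraries, and 7 of 10 were lower with 4OHT and 8 of 10 lower with knockdown. Log2 fold changes of single fibroblast markers ran from -5.12 to 0.067 with 4OHT and from -1.49 to -0.061 with knockdown. Their summed level was 28973 to 35244 CPM in DMSO siNT, 17960 to 27929 CPM in 4OHT siNT and 9479 to 16679 CPM in 4OHT siSMARCA4, while the means of VIM lay between 5717 and 5982 CPM. Markers of other lineages were present to different degrees. Summed epithelial markers, mostly KRT8, KRT18 and KRT19, were at 101 to 139 CPM in DMSO siNT, 66.2 to 83.4 in 4OHT siNT and 35.9 to 59.03 in 4OHT siSMARCA4, with 3 of 4 tested lower with 4OHT and 4 of 4 with knockdown. Of 4 endothelial markers tested, 3 rose with 4OHT and 1 fell with knockdown, at sums of 3.44 to 14.1 CPM. Immune markers summed to 20.03 to 30.5 CPM, nearly all of it CD68, with 0 of 2 tested called by edgeR. Striated muscle markers summed to 0.209 to 0.768 CPM. Of the epithelial, endothelial, immune and striated muscle markers, CDH5, CDH1, SFTPC, PTPRC, CD3E, LYZ, MYOD1, MYOG, MYH6, MYH7 and TNNI1 averaged under 0.1 CPM in each group. From the same lists, EPCAM, VWF, KDR, TEK, CD14 and MYH3 averaged at least 0.1 CPM in every group. PECAM1, 1 of the endothelial markers, averaged 0.0144 CPM in DMSO siNT, 0.935 CPM in 4OHT siNT and 0.341 CPM in 4OHT siSMARCA4. It was higher with 4OHT (log2 fold change 5.80) and lower with knockdown (-1.43). Summed pericyte markers, a cell type that shares contractile genes, went from 166 to 238 CPM in DMSO siNT, over 95.2 to 201 in 4OHT siNT, to 34.3 to 129 in 4OHT siSMARCA4, with 3 of 4 tested lower with 4OHT and 1 of 4 with knockdown. The part of these marker changes in the results below was not tested. In RNA from whole cultures, fewer cells that express a gene and less RNA per cell cannot be told apart.

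The contractile genes together took 0.692 ± 0.146% of all counts in DMSO siNT (n = 5), 0.355 ± 0.0281% in 4OHT siNT (n = 6) and 0.334 ± 0.0686% in 4OHT siSMARCA4 (n = 6). Levels of different genes were compared per kilobase of the canonical transcript. On this scale TPM2, a tropomyosin, was highest in DMSO siNT (1919 ± 736 CPM per kb), above TPM1 (657 ± 151) without overlap of libraries. TPM1 overlapped with MYL9, the regulatory myosin light chain (462 ± 66.6), and MYL9 overlapped with TAGLN (336 ± 89.4). TAGLN (transgelin, an actin-binding protein) overlapped with ACTG2 (250.5 ± 54.6 CPM per kb), the smooth muscle gamma actin, and ACTG2 with ACTA2 (209 ± 86.3), the smooth muscle alpha actin. SMTN, smoothelin, followed at 68.6 ± 17.04 CPM per kb and overlapped with CNN1, calponin, at 43.4 ± 7.44. LMOD1, which helps actin filaments to form, was at 12.6 ± 4.24 CPM per kb. MYH11, the smooth muscle myosin heavy chain that marks mature smooth muscle, was lowest at 0.0259 ± 0.0102 CPM per kb and had 1 to 20 counts in any library. So the cells expressed the thin filament genes but almost none of the myosin heavy chain of smooth muscle. With all exons of a gene merged as its length, TPM2 stayed at the top and MYH11 at the bottom, but TPM1 moved from the second to the fifth place.

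Most of the contractile genes were lower in senescent cells. Of the 10, 7 fell and 1 rose in 4OHT siNT against DMSO siNT (edgeR quasi-likelihood test, adjusted p under 0.05), against a background in which 54.4% of all genes tested were called, 27.4% lower and 27.0% higher. Libraries of the 2 groups did not overlap for all 7 that fell, compared with 20.0% of all genes that fell without overlap, nor for the 1 that rose (19.6%). The median log2 fold change of the 10 was -1.29, and that of all genes was 0.00383. The 10 genes were chosen with earlier results of these data known, so counts beside the shares of all genes are a description.

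**Figure D1:**
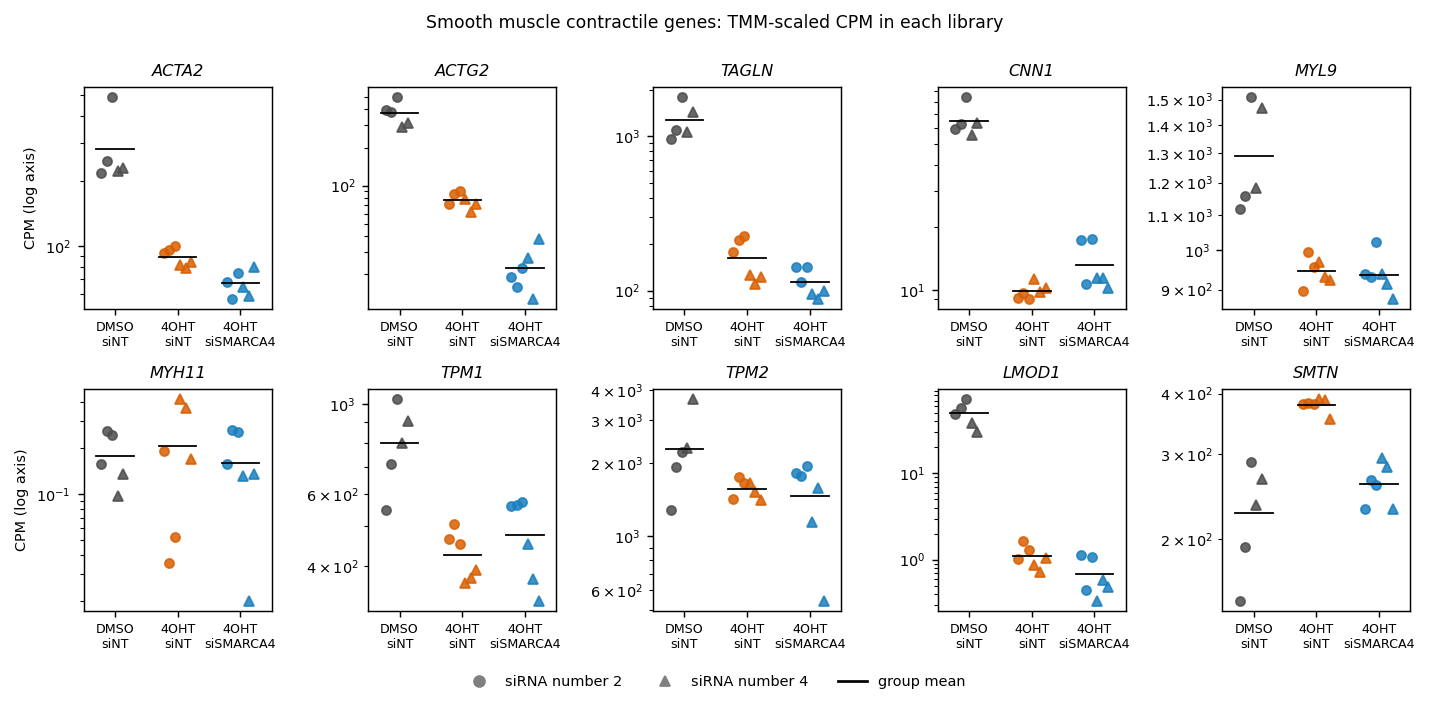
TMM-scaled CPM of the 10 contractile genes in each library (log axis), with circles for siRNA number 2, triangles for number 4 and lines for group means. ACTA2, ACTG2, TAGLN, CNN1, MYL9, TPM1 and LMOD1 are lower in all 4OHT siNT libraries than in all DMSO siNT libraries, and SMTN is higher, while ACTG2 and SMTN are lower in all siSMARCA4 than in all 4OHT siNT libraries.

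The actins came first. ACTA2 (chromosome 10, 88935074 to 88991339, minus strand, GRCh38) was at 217, 247, 489, 224 and 229 CPM in the DMSO siNT libraries 2-1V, 2-2V, 2-2VM, 4-2VM and 4-3VM. In 4OHT siNT it ranged from 78.9 to 99.7 CPM with a median of 88.8. ACTA2 was thus lower in every 4OHT siNT library, and fell by 1.66 ± 0.17 on the log2 scale (SE; edgeR quasi-likelihood test, adjusted p = 1.77e-07). DMSO library 2-2VM stood apart, and without it the log2 fold change was -1.39 (adjusted p = 1.63e-09). ACTG2 (chromosome 2, 73892314 to 73919865, plus strand), whose CArG boxes are shown above, was at 398, 380.4, 498, 288 and 314 CPM in the same DMSO libraries. In 4OHT siNT it ranged from 61.7 to 90.01 CPM with a median of 75.0. No 4OHT siNT library came near the DMSO values, and the log2 fold change was -2.30 ± 0.22 (edgeR adjusted p = 4.35e-08). The smooth muscle actins are nearly identical as proteins and closely related to the other actins, and the authors' counting shared ambiguous reads among genes. The levels of ACTA2 and ACTG2 and the split between them are uncertain to that extent, which was not tested. Of the other actins, ACTB fell by 0.64 and ACTG1 by 0.26 on the log2 scale (edgeR adjusted p = 4.96e-06 and 0.0406). ACTA1 and ACTC1, the skeletal and cardiac actins, had means under 1 CPM in every group and were not tested.

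The genes of actin-bound regulatory proteins showed the widest range. LMOD1 (chromosome 1, 201896456 to 201946548, minus strand) was at 49.1, 57.7, 72.7, 38.4 and 29.96 CPM in DMSO siNT, in the order given for ACTA2, and at 0.726 to 1.64 CPM with a median of 1.03 in 4OHT siNT. Its 4OHT siNT mean was 2.22% of its DMSO mean, and the log2 fold change was -5.49 ± 0.30 (edgeR adjusted p = 2.16e-11), the largest among the 10. The low level still rested on 40 to 92 counts in each 4OHT siNT library. TAGLN (chromosome 11, 117199370 to 117207464, plus strand) was at 959.5, 1099.5, 1787, 1073 and 1433 CPM in DMSO siNT and at 111 to 225 CPM with a median of 152 in 4OHT siNT. Here too the groups were far apart (log2 fold change -2.97 ± 0.21, edgeR adjusted p = 1.27e-09). CNN1 (chromosome 19, 11538767 to 11550323, plus strand) was at 59.6, 62.6, 84.2, 55.5 and 63.3 CPM in DMSO siNT and at 9.05 to 11.2 CPM with a median of 9.74 in 4OHT siNT. Its 4OHT siNT libraries lay close together at 15.1% of the DMSO mean (log2 fold change -2.72 ± 0.15, edgeR adjusted p = 2.72e-11).

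SMTN went the other way. SMTN (chromosome 22, 31064105 to 31104757, plus strand) was at 149, 192, 288, 235 and 266 CPM in DMSO siNT and at 355 to 389.8 CPM with a median of 382 in 4OHT siNT. Every 4OHT siNT library was above every DMSO library (log2 fold change 0.75 ± 0.13, edgeR adjusted p = 5.90e-05). SMTN gives rise to smooth muscle and other isoforms from several starts, which gene counts do not separate.

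The myosin and tropomyosin genes came last. MYL9 (chromosome 20, 36541497 to 36551447, plus strand) was at 1118, 1159, 1509, 1184 and 1468 CPM in DMSO siNT and at 896 to 997 CPM with a median of 944 in 4OHT siNT. The fall was small but without overlap (log2 fold change -0.45 ± 0.08, edgeR adjusted p = 0.000118). TPM1 (chromosome 15, 63042620 to 63071915, plus strand) fell from 799 ± 184 CPM (n = 5) to 425 ± 57.5 (n = 6), with no overlap between the groups (log2 fold change -0.91 ± 0.16, edgeR adjusted p = 0.000107). TPM2 (chromosome 9, 35681992 to 35690056, minus strand) was at 1284, 1923, 2223, 2318 and 3673 CPM in DMSO siNT and at 1415 to 1763 CPM in 4OHT siNT. The spread among the DMSO libraries exceeded the difference between the groups, and TPM2 did not pass the test (log2 fold change -0.54 ± 0.26, edgeR adjusted p = 0.0891). DMSO library 2-1V was the one below the 4OHT range, and without it TPM2 passed at a log2 fold change of -0.72 (adjusted p = 0.0275). Library 4-3VM was the highest, and without it the log2 fold change was -0.30 (adjusted p = 0.330). It was -0.20 with siRNA number 2 alone (adjusted p = 0.348) and -1.02 with number 4 alone (adjusted p = 0.0423). TPM2 also passed with V or VM as a covariate (-0.77, adjusted p = 0.00776). MYH11 (chromosome 16, 15703135 to 15857028, minus strand) was at 0.0968 to 0.259 CPM in DMSO siNT and 0.0356 to 0.417 CPM in 4OHT siNT, and a difference was not detectable at these counts (log2 fold change 0.21 ± 0.53, edgeR adjusted p = 0.765).

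DMSO library 2-2VM held the highest value of its group for 8 of the 10 genes, and 2-1V the lowest for 6. Both of these libraries carried siNT number 2. Leaving out 2-2VM kept all 8 calls, and so did comparing only libraries with a tag that ends in VM, where TPM2 was also called lower (log2 fold change -0.83, edgeR adjusted p = 0.000362).

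ACTG2 and SMTN fell and CNN1 rose after knockdown of SMARCA4 within 4OHT. These 3 of 10 genes were called by edgeR, near the background share, since 24.2% of all genes tested were called, 13.8% lower and 10.4% higher. With siRNA number as a covariate 5 of 10 were called, with TAGLN (-0.49, adjusted p = 0.0256) and LMOD1 (-0.74, adjusted p = 0.0172) also lower, and 4898 of all 19473 genes were called in that fit. The 2 that fell did so without overlap of libraries, as did 7.49% of all genes. The median log2 fold change of the 10 was -0.38, and that of all genes was -0.02.

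**Figure D2:**
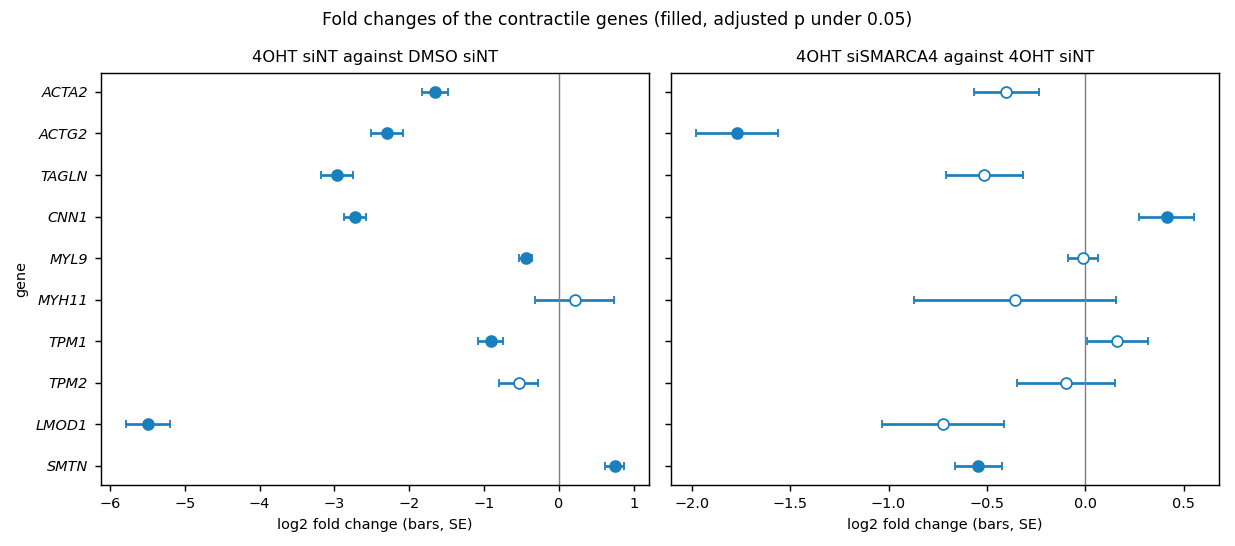
Log2 fold changes with SE of the 10 genes in 4OHT siNT against DMSO siNT (left) and 4OHT siSMARCA4 against 4OHT siNT (right), with filled points for an adjusted p under 0.05 and different axis ranges. LMOD1 lies farthest to the left with 4OHT, and ACTG2 lies farthest to the left with knockdown, at -1.77.

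ACTG2 responded most. Its level was 61.7 to 90.01 CPM with a median of 75.0 in 4OHT siNT and 12.8 to 38.1 CPM with a median of 20.6 in 4OHT siSMARCA4. The siSMARCA4 mean was 29.3% of the siNT mean and 5.97% of the DMSO mean. The log2 fold change was -1.77 ± 0.21 (edgeR adjusted p = 2.20e-05), and ACTG2 was called lower in all 27 alternative analyses. SMTN was at 231 to 294 CPM with a median of 262 in 4OHT siSMARCA4, below all 4OHT siNT libraries and above or within the DMSO range of 149 to 288 CPM (log2 fold change -0.54 ± 0.12 against 4OHT siNT, edgeR adjusted p = 0.00322). Against DMSO siNT its log2 fold change was 0.20 ± 0.13 (edgeR adjusted p = 0.184). CNN1 was at 10.2 to 17.6 CPM with a median of 11.4 in 4OHT siSMARCA4, which overlapped the 4OHT siNT range. Its rise of 0.41 ± 0.14 on the log2 scale was near the threshold (edgeR adjusted p = 0.0390), with siSMARCA4 libraries 2-1VM and 2-3VM the highest at 17.4 and 17.6 CPM. The call was lost on leaving out either of these (0.32 and 0.31, adjusted p = 0.107 and 0.108). It was also lost without any 1 of the 4OHT siNT libraries 2-1VM, 2-2VM, 4-2VM, 2-3VM and 4-3VM, at adjusted p of 0.0574 to 0.0770.

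The actin gene best known as a myofibroblast marker, ACTA2, was at 57.0 to 80.1 CPM with a median of 66.6 in 4OHT siSMARCA4. It overlapped the 4OHT siNT range in 1 library, 4-3V, and did not pass the test (log2 fold change -0.40 ± 0.17, edgeR adjusted p = 0.0858), although it did in a fit of these 2 groups alone (adjusted p = 0.00627). TAGLN was at 88.5 to 143 CPM with a median of 107, also with overlap (log2 fold change -0.51 ± 0.20, edgeR adjusted p = 0.0648). Within siRNA number 2 TAGLN was at 178 to 225 CPM with siNT and 114 to 143 CPM with siSMARCA4. Within number 4 it was at 111 to 125 against 88.5 to 99.4 CPM, without overlap in either. The labels do not say what libraries of the same number share beyond it. TAGLN passed the test in 5 of 27 alternative analyses. Among these were the fits without 4OHT siNT library 4-2VM (-0.60, adjusted p = 0.0368) or 4-3VM (-0.58, adjusted p = 0.0495). LMOD1 was at 0.336 to 1.12 CPM (log2 fold change -0.72 ± 0.31, edgeR adjusted p = 0.101), and without siSMARCA4 library 2-1VM its adjusted p was 0.0478 at -0.93. MYL9 gave a difference of -0.01 ± 0.08, TPM1 of 0.16 ± 0.16, TPM2 of -0.10 ± 0.25 and MYH11 of -0.36 ± 0.51 on the log2 scale, with edgeR adjusted p from 0.491 to 0.931. TPM2 ranged from 545 CPM in library 4-3V to 1953 CPM in 2-3VM, wider than in 4OHT siNT, and without 4-3V its difference was 0.071.

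All 4OHT siNT libraries had a tag that ends in VM, and 3 of the 6 siSMARCA4 libraries did. With VM libraries alone, CNN1 (0.67), ACTG2 (-2.07) and SMTN (-0.55) were the 3 genes called, with edgeR adjusted p of 0.00456, 1.99e-05 and 0.000268. The siSMARCA4 libraries in this subset were 2-1VM, 2-3VM and 4-2VM, with CNN1 at 17.4, 17.6 and 11.4 CPM. The subset thus kept both libraries on which the CNN1 call depended, so it is no separate check of that call.

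Against DMSO siNT, 4OHT siSMARCA4 libraries were lower for 8 of the 10 genes, where 55.1% of all genes were called and 28.6% were lower. Of the 8, 6 had no overlap of libraries (19.9% of all genes fell without overlap). This comparison shares its libraries with the other 2. The log2 fold changes were -2.06 for ACTA2, -4.07 for ACTG2, -3.48 for TAGLN, -2.31 for CNN1, -6.21 for LMOD1, -0.46 for MYL9 and -0.75 for TPM1 (edgeR adjusted p from 6.72e-12 to 0.000701). With siRNA number 2 alone TPM1 lost its call (-0.42, adjusted p = 0.0634) and 6 of the 10 genes were called. TPM2 passed narrowly (-0.64 ± 0.26, edgeR adjusted p = 0.0450) and lost its call without any 1 of DMSO libraries 2-2VM, 4-2VM and 4-3VM or siSMARCA4 libraries 4-2V, 4-2VM and 4-3V, with adjusted p from 0.0571 to 0.186. The log2 fold change of TPM2 was -0.40 without 4-3VM. Over 24 alternative analyses it ran from -1.46 to 0.037, the latter with siRNA number 2 alone.

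The siRNA numbers were then compared. SMARCA4 was at 68.9 to 103 CPM with siSMARCA4 number 2 and at 68.4 to 126 CPM with number 4 (difference of -0.15 ± 0.18 on the log2 scale, edgeR adjusted p = 0.729). Between the siSMARCA4 numbers, edgeR and DESeq2 each called 0 of the 10 genes. By edgeR, 0.293% of all genes were called. The unadjusted p was under 0.05 for 5 of the 10 by each tool, and by edgeR for 2844 of all 19473 genes. Leaving out 1 library changed this count and moved these values in both directions. CNN1 (log2 difference 0.47) was called without 2-3V (0.67; 199 of all genes called) and was at 0.35 without 2-3VM. TPM2 (0.76) and ACTG2 (-0.44) were called without 4-2VM (1.13 and -0.76; 2155 of all genes called) and were at 0.44 and -0.055 without 4-3V. Values of 4 of the 10 were higher with number 2 without overlap of 3 libraries against 3, which held for 6.38% of all genes. These were TAGLN (114 to 143 against 88.5 to 99.4 CPM), TPM1 (562 to 574 against 329 to 453 CPM) and TPM2 (1773 to 1953 against 545 to 1578 CPM), and MYH11, with at most 14 counts a library. TPM1 was also separated between the siNT numbers within 4OHT, at 451 to 506 against 363 to 390 CPM. Relative to the siNT numbers, the difference between the siSMARCA4 numbers was 0.22 for TPM1 and -0.28 for TAGLN, and 0 of the 10 genes and 207 of all genes were called by edgeR.

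Each number was also set against all 6 4OHT siNT libraries, a comparison added after the data were seen. With number 2, CNN1 (0.63) and TPM1 (0.43) were called higher and ACTG2 (-2.003) and SMTN (-0.59) lower, where 12.6% of all genes were called higher and 16.1% lower. With number 4, 4 genes were called lower, TAGLN (-0.74), ACTG2 (-1.56), LMOD1 (-1.23) and SMTN (-0.50), and 0 higher, where 8.47% of all genes were called lower and 8.12% higher. ACTG2 and SMTN were called lower in both of these comparisons, with edgeR adjusted p of 5.95e-05 and 0.00850 for number 2 and 0.000728 and 0.0338 for number 4. Against only the siNT libraries of the same number, ACTG2 was called with number 2 (-2.08, adjusted p = 3.63e-05) and number 4 (-1.42, adjusted p = 0.0270). SMTN was called with neither number there (-0.56 and -0.45, adjusted p = 0.0518 and 0.0618), and CNN1 with number 2 (0.75, adjusted p = 0.0181) and not with number 4 (0.12, adjusted p = 0.573). Libraries with siNT number 2 and number 4 differed too: TAGLN was at 178 to 225 CPM with number 2 and 111 to 125 CPM with number 4 (log2 difference 0.78 ± 0.19, edgeR adjusted p = 0.0282). It was the 1 gene of the 10 called there, where 3.52% of all genes were called higher and 1.16% lower. An effect of the siRNA and other differences between these libraries cannot be told apart.

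**Figure D3:**
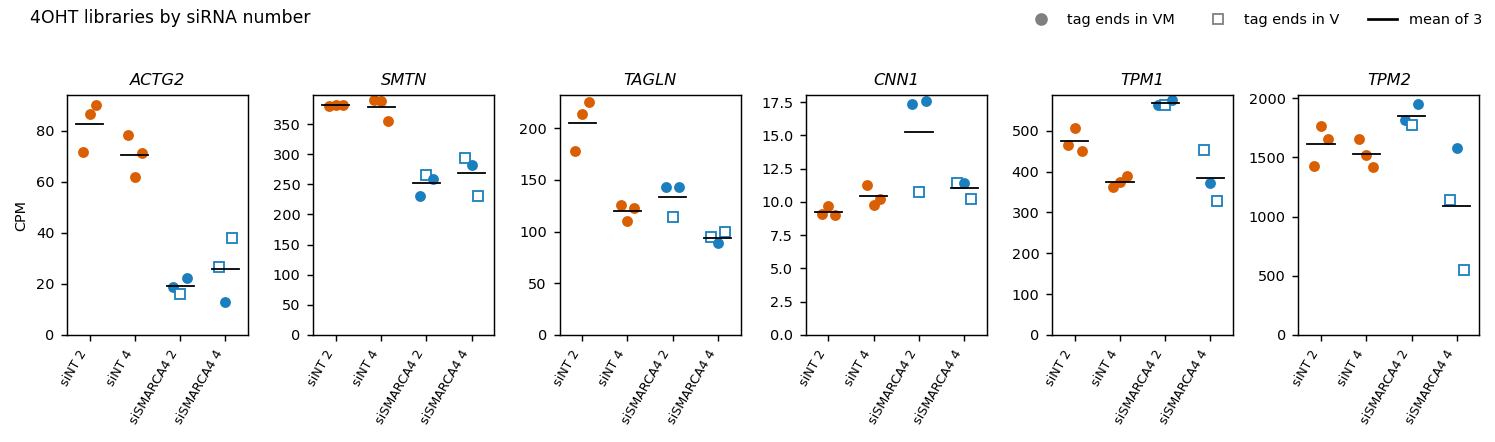
CPM of 6 contractile genes in the 4OHT libraries by siRNA, with circles for tags that end in VM, open squares for V and lines for means of 3 libraries. ACTG2 and SMTN lie below siNT with both siSMARCA4 numbers, the 2 high CNN1 values come from siSMARCA4 number 2, and TAGLN differs between the siNT numbers.

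The genes around the contractile apparatus were taken from lists of known function. These lists too were chosen with earlier results of these data known, so their counts beside the shares of all genes are a description. SRF, the transcription factor, was at 70.9 ± 4.88 CPM in DMSO siNT (n = 5), 80.9 ± 6.13 in 4OHT siNT (n = 6) and 86.4 ± 5.78 in 4OHT siSMARCA4 (n = 6). It was slightly higher in 4OHT siNT than in DMSO siNT (log2 fold change 0.19 ± 0.07, edgeR adjusted p = 0.0271), with overlap. MYOCD, the coactivator of smooth muscle and heart, was low throughout, at 2.88 ± 1.03, 1.93 ± 0.337 and 1.69 ± 0.619 CPM. MRTFB, a broadly expressed coactivator, fell by 0.71 on the log2 scale with 4OHT (edgeR adjusted p = 0.00409), with overlap. It was at 15.04, 14.1, 9.28, 9.87 and 6.06 CPM in DMSO siNT libraries 2-1V, 2-2V, 2-2VM, 4-2VM and 4-3VM. In 4OHT siNT it ranged from 5.28 to 7.61 CPM. The highest values came from 2-1V and 2-2V, whose tags end in V, as no 4OHT siNT tag does. MRTFA, the other broadly expressed coactivator, was lower in all siSMARCA4 libraries than in all 4OHT siNT libraries (41.0 ± 2.66 against 49.9 ± 3.74 CPM, n = 6 each; log2 fold change -0.29 ± 0.08, edgeR adjusted p = 0.0134).

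**Figure D4:**
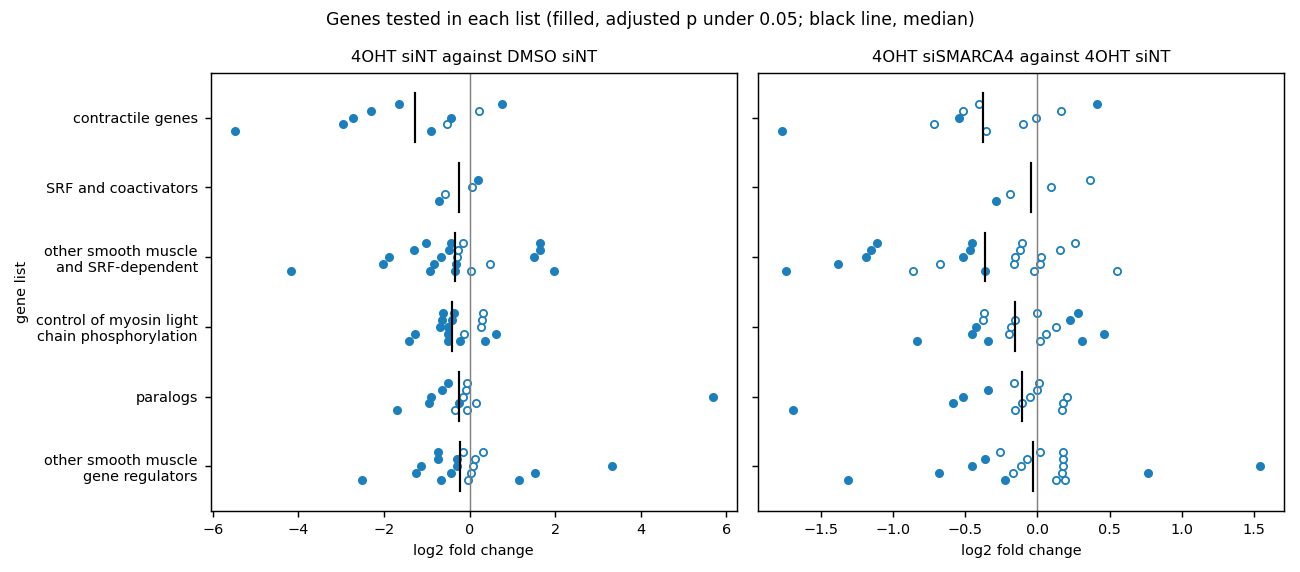
Log2 fold changes of the genes tested in each list for 4OHT siNT against DMSO siNT (left) and 4OHT siSMARCA4 against 4OHT siNT (right), with filled points for an adjusted p under 0.05, black lines for medians and different axis ranges. The median of the contractile genes with 4OHT is -1.29, and TAGLN3 is the point farthest to the right in that panel, at 5.68.

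Of 24 other smooth muscle and SRF-dependent cytoskeletal genes, 21 were tested, and 12 fell and 4 rose with 4OHT (median log2 fold change -0.35), against 27.4% lower and 27.0% higher of all genes. DES, the intermediate filament desmin, fell by 4.18 on the log2 scale but was under 1 CPM in DMSO siNT. SYNPO2, an actin-bundling protein, changed by -2.02 and HSPB6, a small heat shock protein of muscle, by -1.87. PDLIM3, a protein of the Z line and actin bundles, rose by 1.98. The edgeR adjusted p for these 4 ran from 1.16e-07 to 1.59e-05. With knockdown, 9 of the 21 fell and 0 rose (median -0.36; 13.8% and 10.4% of all genes), among them HSPB6 (log2 fold change -1.19) and PDLIM3 (-1.11), with edgeR adjusted p of 0.000192 and 0.00636.

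Of 17 genes that control phosphorylation of the myosin light chain, 11 fell and 2 rose with 4OHT (median -0.42), against 27.4% lower and 27.0% higher of all genes. MYLK, myosin light chain kinase, was at 715 ± 168 CPM in DMSO siNT (n = 5), 298 ± 20.7 in 4OHT siNT (n = 6) and 167 ± 35.4 in 4OHT siSMARCA4 (n = 6). It fell with 4OHT (-1.26 ± 0.15, edgeR adjusted p = 8.95e-07) and again with knockdown (-0.84 ± 0.14, edgeR adjusted p = 0.000516), without overlap in either. PPP1R14A, an inhibitor of myosin phosphatase, fell by 1.41, PPP1R12A, the targeting subunit of that phosphatase, by 0.68, and RHOA, the GTPase that restrains it, by 0.64 on the log2 scale with 4OHT. With knockdown, 4 of the 17 rose and 4 fell, against 10.4% higher and 13.8% lower of all genes, and RHOA was among those that rose (0.28 ± 0.09, edgeR adjusted p = 0.0253).

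Of 20 paralogs of the contractile genes, 13 were tested, and 6 fell and 1 rose with 4OHT (median -0.26), against 27.4% lower and 27.0% higher of all genes. The 1 that rose was TAGLN3, a neuronal relative of TAGLN, from 1.09 ± 0.291 CPM in DMSO siNT (n = 5) to 56.4 ± 6.73 in 4OHT siNT (n = 6; log2 fold change 5.68 ± 0.36, edgeR adjusted p = 1.94e-10). It was at 17.4 ± 9.11 CPM in 4OHT siSMARCA4 (-1.69 ± 0.27 against 4OHT siNT, edgeR adjusted p = 0.000244). TAGLN and TAGLN3 thus moved in opposite directions with 4OHT. MYH10, a non-muscle myosin heavy chain, fell by 1.69, CNN2 by 0.96 and CNN3 by 0.90 on the log2 scale with 4OHT. With knockdown 4 of the 13 fell and 0 rose (13.8% and 10.4% of all genes), among them MYH10 (-0.59 ± 0.15, edgeR adjusted p = 0.00845).

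Among 18 other regulators of smooth muscle genes, 9 fell and 3 rose with 4OHT (median -0.22; 27.4% and 27.0% of all genes), and 5 fell and 2 rose with knockdown (median -0.03; 13.8% and 10.4% of all genes). KLF4, which represses contractile genes in smooth muscle, fell with 4OHT (-2.51 ± 0.17, edgeR adjusted p = 6.93e-10) and rose with knockdown (0.77 ± 0.16, edgeR adjusted p = 0.00271). GATA6, a factor of the quiescent smooth muscle cell, was at 1.45 ± 0.352 CPM in 4OHT siNT and 4.25 ± 0.661 in 4OHT siSMARCA4 (n = 6 each; 1.55 ± 0.16, edgeR adjusted p = 8.05e-06). HEYL, a Notch target, rose by 3.33 with 4OHT from a level near 0.05 CPM.

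ACTA2 lies across from a pair of genes on the plus strand of chromosome 10, its antisense gene ACTA2-AS1 (88932390 to 88940820) and STAMBPL1 (88879734 to 88975153). The authors counted reads by strand, and how fully this kept the genes apart was not tested. ACTA2-AS1 was at 7.50, 6.82, 24.1, 2.79 and 1.56 CPM in DMSO siNT and 0.320 to 3.81 CPM in 4OHT siNT. It was highest in 2-2VM, the DMSO library that was also highest for ACTA2. Among the libraries of siRNA number 4, ACTA2-AS1 was at 2.79 and 1.56 CPM in DMSO siNT and at 3.69, 3.78 and 1.04 CPM in 4OHT siNT, and these overlapped. STAMBPL1 gave a log2 difference of 0.01 ± 0.16 between 4OHT siNT and DMSO siNT. In 4OHT siSMARCA4, ACTA2-AS1 was at 1.40 to 4.25 CPM and STAMBPL1 at 27.8 to 59.9 CPM.

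Over the 17 libraries, the genes outside the 10 with the pattern most like that of ACTA2 (Pearson r of log2 CPM, genes of at least 10 CPM on average) were PSG4 (r = 0.978), CNN2 (0.976), PSG5 (0.976), SMARCD3 (0.975) and PLCB4 (0.974). For TAGLN they were PSG5 (0.992), LMO7 (0.991), SCD5 (0.990), PLCB4 (0.989) and GPX8 (0.988). These values are a description, since all libraries share the 3 groups and 1 normalization. Within groups, after the group means were removed, TPM1 went with TAGLN (r = 0.800) and TPM2 (0.742), and MYL9 with SMTN (0.754), whereas ACTG2 and TPM2 gave -0.614 over the 17 libraries. Differences between siRNA numbers were not removed, and TAGLN and TPM1 were both higher with number 2 in both 4OHT groups. Library 4-3V held the lowest TPM2 (545 CPM) and the highest ACTG2 (38.1 CPM) of 4OHT siSMARCA4.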

How the data were processed

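RNA was prepared with a directional poly(A) kit, and 17 libraries of IMR90 ER:RAS fibroblasts were analyzed (5, 6 and 6 per group). The authors trimmed reads with Cutadapt 4.7, aligned them to GRCh38 with HISAT2 2.2.1 with up to 100 alignments per read pair, and counted genes and repeats with TElocal, reverse-stranded and with multimapping reads shared by maximum likelihood. The deposited expected counts are whole numbers, so rounding had no effect. The methods name an older Ensembl release, but all 62700 GENCODE 44 gene IDs are in the tables, and that annotation was used for names and positions. The 10 genes and the gene lists were chosen with earlier results of these data known.

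Genes and 1026 summed repeat subfamilies were filtered together (filterByExpr, minimum count 10, minimum total 15) and scaled by TMM. A single model over the 3 groups was fitted with edgeR 4.0.16 (quasi-likelihood test, R 4.3.3), with Benjamini-Hochberg adjustment over 19473 genes and a threshold of 0.05. The SE is the log2 fold change divided by the square root of F. DESeq2 1.42.0, other scalings and filters, blocks, covariates, subsets and leaving out each library were alternatives. Totals of 39.1 to 68.98 M counts per library (M for 1e6) set the precision. The rule for named genes took the 10 genes, SRF and its coactivators, and the closely related actins. It also took up to 4 genes per list with the largest change among those called without overlap. Single marker genes, VIM, ACTA2-AS1 and STAMBPL1 were named outside this rule, after their values were seen. A gene that the rule names is not reported here. The canonical transcript length was also chosen after the values were seen. The edgeR and DESeq2 tests were run on simulated data first.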

Additional observations from a re-analysis of the deposited data

Results flagged for a closer look

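Among 30 sets of values, each 1 contractile gene in 1 group, 3 held a library far from the others of its group, where chance gives about 1 in 20. ACTA2 was at 489 CPM in DMSO siNT library 2-2VM and at 217 to 247 CPM in the other 4. CNN1 was at 84.2 CPM in the same library and at 55.5 to 63.3 CPM in the others. SMTN was at 355 CPM in 4OHT siNT library 4-3VM and at 380.3 to 389.8 CPM in the other 5.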

How the results depend on the processing

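Of 888 recomputed values, 810 kept their direction and side of the threshold, 25 newly passed it, 21 no longer passed it and 32 changed sign. Leaving out 1 library at a time gave 8 to 9 called genes for 4OHT siNT against DMSO siNT, 2 to 3 for knockdown within 4OHT and 7 to 8 for 4OHT siSMARCA4 against DMSO siNT. Between the siSMARCA4 numbers it gave 0 to 2: CNN1 without 2-3V (199 of all genes called), and ACTG2 and TPM2 without 4-2VM (2155). Without a filter that count was 6 of 10, and over all genes 916, against 57 with the filter and 439 by DESeq2. Knockdown called 5 of 10 (4898 of all genes) with siRNA number as a covariate and 1 of 10 with number 4 alone, where 1198 of all genes were called against 4703. The causes were not tested. Library tags were shared between groups, but libraries with the same tag did not deviate together throughout (r from -0.0072 to 0.29 for knockdown, -0.050 and 0.57 for 4OHT siNT against DMSO siNT, and -0.011 to 0.32 for 4OHT siSMARCA4 against DMSO siNT). By the tag's number r ran from -0.15 to 0.57, so the design was not treated as paired. A replicate block on the full tag called 9, 3, 7 and 0 of the 10 genes in the 4 comparisons, with TPM2 gained in the first (-0.82, adjusted p = 0.0161) and lost in the third, and a block on the tag's number called 8, 3, 7 and 0. No value that changed sign was called. For knockdown within 4OHT, MYL9 gave 0.010 with upper-quartile factors, 0.025 without a filter, 0.046 with the full-tag block, 0.069 with V or VM as a covariate, 0.034 in VM libraries, 0.062 with number 2 alone, 0.029 with number 2 against all siNT, and -0.039 to 0.0052 without 1 library. TPM2 gave 0.16 with the full-tag block, 0.21 with V or VM as a covariate, 0.20 in VM libraries, 0.23 with number 2 in both forms and -0.20 to 0.071 without 1 library. MYH11 gave 1.26 with number 2 alone and 0.37 against all siNT, and TPM1 gave -0.13 with number 4 against all siNT. For 4OHT siNT against DMSO siNT, MYH11 gave -0.014 with the full-tag block, -1.22 with number 2 alone (1.37 with number 4 alone) and -0.096 to 0.44 without 1 library. For 4OHT siSMARCA4 against DMSO siNT, MYH11 gave 0.047 with number 2 alone and -0.34 to 0.075 without 1 library, TPM2 gave 0.037 with number 2 alone, and SMTN gave -0.044 in VM libraries. Between the siSMARCA4 numbers, ACTA2 gave 0.025 and SMTN 0.042 with the block on the tag's number, ACTA2 gave -0.12 to 0.11 without 1 library, and relative to the siNT numbers TAGLN gave -0.28, TPM1 0.22 (0.56 without that reference), LMOD1 0.35 (0.94) and MYH11 2.88 (1.18). MYH11 rested on 1 to 20 counts a library.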
